A study of Mus musculus with 12 samples.

Results

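Glucocorticoid-responsive genes were examined in bulk hippocampus of male mice, by polyA RNA sequencing of 12 animals. The set holds 9 genes that glucocorticoids are known to induce in brain: Fkbp5, Tsc22d3, Sgk1, Zbtb16, Plin4, Errfi1, Map3k6, Sult1a1 and Cdkn1a. They were taken by name from a table of 33250 gene symbols, with earlier results of these data known, and all 9 were among the 19325 genes that passed the filter on low counts. The cKO group was 6 animals labelled as lacking the miR379-410 microRNA cluster through Cre in Emx1-positive cells (the library labelled cKO 1 goes against that label, as described below), and the WT group was 6 wild-type animals. Emx1 marks the cortical lineage that gives rise to hippocampal glutamatergic neurons, so vessel cells, microglia and interneurons of the same tissue lie outside most of that lineage. By design such cells would keep the cluster, which was not measured here. The sources used here do not give ages, the bases deleted, or whether WT animals carried Cre or the floxed allele. The question was whether loss of the cluster goes with a change of these genes, and whether they move together from animal to animal.

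Corticosterone, the main glucocorticoid of mice, binds the glucocorticoid receptor Nr3c1 and the mineralocorticoid receptor Nr3c2, both abundant in hippocampus. The bound glucocorticoid receptor leaves a complex of heat shock chaperones, enters the nucleus and binds DNA at glucocorticoid response elements, whose ideal form is a palindrome of AGAACA and TGTTCT around 3 free bases. Genes such as Fkbp5 and Sgk1 respond to it in neurons, glia and vessel cells, so their level in a tissue sample can reflect both hormone exposure and the cells present.

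The sequences that bear on the 9 genes are of 2 kinds, the receptor's element near gene starts and the seed sites of the deleted microRNAs. RefSeq windows of GRCm38.p6, from 250 bases before to 50 bases after a gene's start, were matched for 8 of the 9 genes, with 17 windows in all; Zbtb16 had no entry. The palindrome AGAACA, 3 free bases and TGTTCT, which reads the same on both strands, was found in 1 of these windows, at a start of Sgk1, and in 3 of all 32851 windows (0.00913%). The looser core of GNACA, 3 free bases and TGTNC (N is any base), which every palindrome also matches, was found on either strand in windows of Sgk1 and Map3k6, and in 156 of all windows (0.475%). The window of Sgk1 is chr10:21993640-21993939 on the plus strand and that of Map3k6 is chr4:133240568-133240867 on the plus strand. They are shown because they are the 2 windows with a match, capitals mark each match, and the separate TGTTCT near the 5′ end of the Sgk1 window is a single hexamer on the other strand.

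Sgk1: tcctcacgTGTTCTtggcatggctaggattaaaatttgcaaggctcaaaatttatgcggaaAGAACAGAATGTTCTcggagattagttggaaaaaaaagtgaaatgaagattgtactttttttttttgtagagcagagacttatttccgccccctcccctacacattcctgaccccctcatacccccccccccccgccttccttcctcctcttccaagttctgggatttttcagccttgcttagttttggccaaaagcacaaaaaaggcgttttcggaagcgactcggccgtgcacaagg

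Map3k6: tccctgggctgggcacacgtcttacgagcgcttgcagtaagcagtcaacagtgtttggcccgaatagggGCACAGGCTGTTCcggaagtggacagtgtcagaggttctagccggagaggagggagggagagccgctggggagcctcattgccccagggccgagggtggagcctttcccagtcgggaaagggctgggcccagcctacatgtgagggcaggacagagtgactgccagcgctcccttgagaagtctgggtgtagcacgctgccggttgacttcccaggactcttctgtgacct

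The match in Sgk1 begins 189 bases before that start, and the core match in Map3k6 begins 181 bases before its start. The single hexamer AGAACA, counted on both strands and also where it lies inside the palindrome, was found in windows of Tsc22d3, Sgk1 and Sult1a1. It is common, with a match for 21.3% of the 27025 genes that have a window. A match is only a match of letters, and response elements also lie far outside such windows.

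The cluster on chromosome 12 gives 71 mature microRNAs in RefSeq, with 64 distinct 7-base sites complementary to their seeds (bases 2 to 8 of the microRNA). In the longest annotated 3′ UTR, at least 1 such site was present in all 9 genes, and also in 91.1% of the 15354 genes with a 3′ UTR of at least 50 bases. Tsc22d3 had 10 sites, or 7.46 per kb, more per kb than 92.5% of genes. Overlapping sites were each counted, and that rank includes the overlapping copies of a GTTT repeat described below. Fkbp5 had 10 sites, or 5.12 per kb, whereas Sult1a1 had 1 site, or 1.86 per kb, against a median of 4.01 per kb over all genes. The sites carried by the most members belong to 3 microRNAs, shown here with the seed in capitals.

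mmu-miR-495-3p: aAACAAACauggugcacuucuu

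mmu-miR-380-3p: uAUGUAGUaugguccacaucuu

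mmu-miR-667-5p: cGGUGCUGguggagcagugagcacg

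Sites for mmu-miR-495-3p (GTTTGTT) occurred in Fkbp5, Sgk1 and Tsc22d3, and in 24.2% of all genes. Sites for mmu-miR-380-3p (ACTACAT) occurred in Errfi1, Map3k6 and Tsc22d3, and in 9.96% of all genes. Sites for mmu-miR-667-5p (CAGCACC) occurred in Cdkn1a, Fkbp5 and Plin4, and in 16.5% of all genes. The lines below show 1 site in each gene that has one of the first 2, from GENCODE M21, with the seed match in capitals. In Tsc22d3 a GTTT repeat holds 5 further overlapping copies of the mmu-miR-495-3p site.

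Fkbp5, mmu-miR-495-3p: tttagtgtaagGTTTGTTacagtctctgt

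Sgk1, mmu-miR-495-3p: tgtgggacattGTTTGTTtcttccacatt

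Tsc22d3, mmu-miR-495-3p: agttctttccaGTTTGTTtttggctcccc

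Errfi1, mmu-miR-380-3p: ttttacatttgACTACATtatatacctat

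Map3k6, mmu-miR-380-3p: acccaaaggacACTACATacaatcataaa

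Tsc22d3, mmu-miR-380-3p: cattggtgctgACTACATagaatggggtt

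Library totals ran from 44803740 to 51095758 counts in cKO and from 42360558 to 50804033 counts in WT. Levels are CPM, a gene's counts scaled to a common library total, after TMM scaling, which corrects library totals for differences in composition. At the targeted region, the host transcript Mirg did not separate the genotypes as labelled, with a mean of 34.1 CPM in cKO and 30.7 CPM in WT (adjusted p = 0.738, edgeR's quasi-likelihood test). The library labelled cKO 1 was the lowest of all for Mirg, at 23.6 CPM. The other cKO libraries ran from 32.6 to 46.4 CPM and WT from 28.4 to 34.1 CPM, so these still overlap. The cluster's neighbour B830012L14Rik did mark the deletion, with 17.4 to 25.8 CPM in 5 cKO libraries. The library labelled cKO 1 had 0.788 CPM of B830012L14Rik and the highest WT library 0.865 CPM. Emx1 repeated this, with 5.91 to 6.84 CPM in the same 5 libraries, 9.14 CPM in the library labelled cKO 1 and 8.38 to 9.60 CPM in WT. The library labelled cKO 1 therefore goes against its label at B830012L14Rik and Emx1. The genotype differences of the members, the named receptor and induced genes and the gene lists are thus given with and without it. In WT 2, WT 3 and cKO 4 the summed markers of choroid plexus epithelium lay at 59.8 to 586 CPM, against 2471 to 8419 CPM in the other libraries. Hippocampal neurons were present throughout, with summed pyramidal neuron markers of 6031 to 6945 CPM in cKO and 6392 to 7086 CPM in WT.

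None of the 9 genes passed an adjusted p of 0.05 between genotypes, where 0.0103% of all genes passed (2 of 19325, edgeR), nor with DESeq2, where 0.446% of genes passed. All 9 nevertheless had a mean difference above 0 in cKO, where 53.4% of all genes did, with a median log2 fold change of 0.16 against 0.01 over all genes. Before adjustment, Plin4, Errfi1, Map3k6 and Sult1a1 lay under a p of 0.05, all higher in cKO, as did 3.2% of all genes in that direction. The other 5 differed by 0.05 to 0.23 on the log2 scale, with 95% intervals that include 0. No gene of the set had every cKO library above every WT library, which 0.181% of all genes had. Without the library labelled cKO 1, again none passed, where 0.0308% of genes passed, and the median log2 fold change was 0.18. Plin4, Errfi1 and Map3k6 then lay under an unadjusted p of 0.05 (edgeR), as did 3.27% of genes higher in cKO, and all 9 means lay above 0, as did 50.7% of genes. In bulk tissue, fewer cells of a type and less RNA per cell cannot be told apart.

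**Figure D1:**
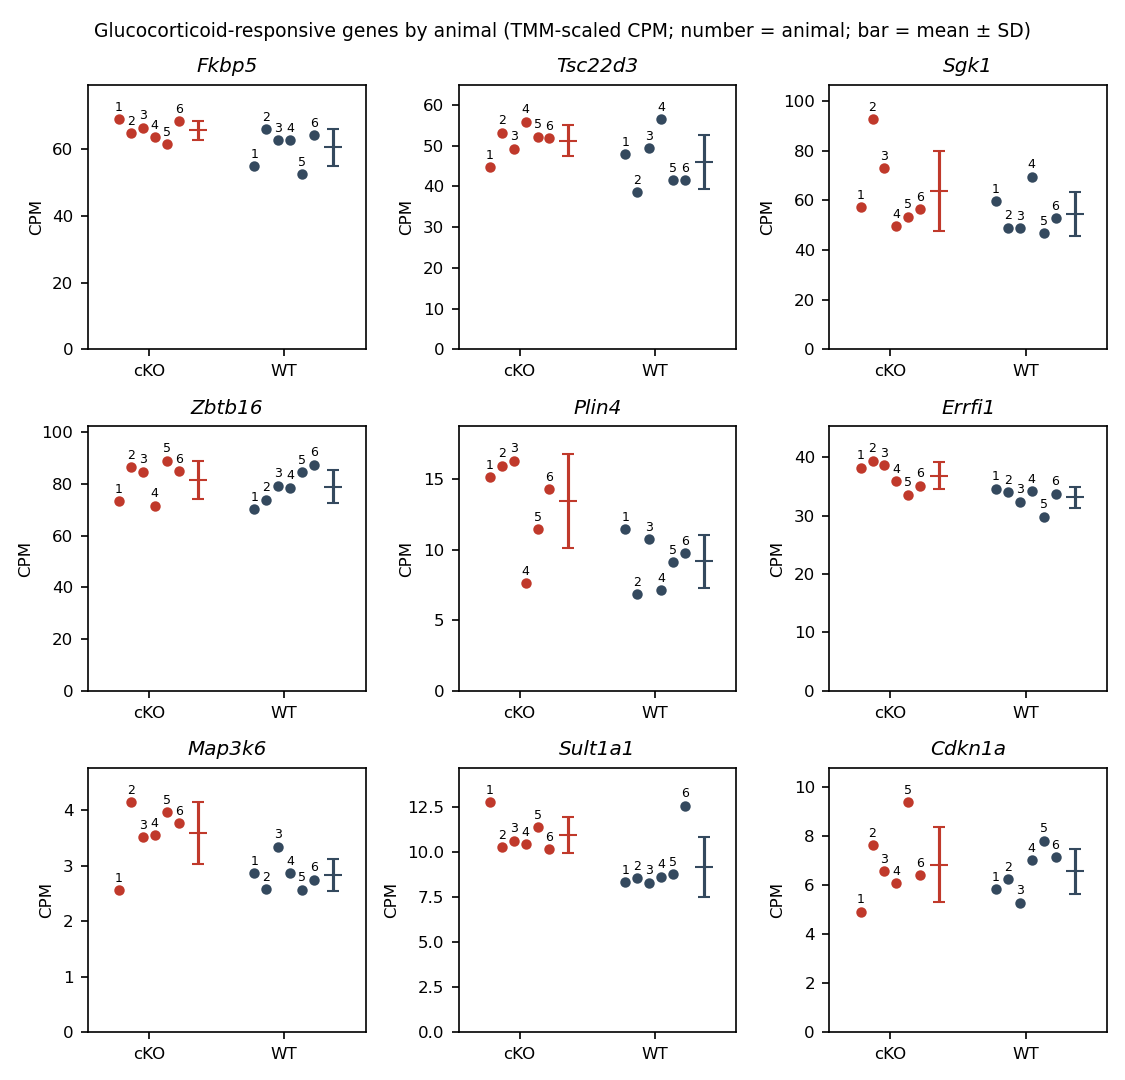
Level of each of the 9 genes in TMM-scaled CPM (vertical axes from 0) in the 6 cKO and 6 WT animals, with the animal number above each point and the mean ± SD as a bar. Plin4, Errfi1 and Map3k6 had 4, 5 and 5 cKO animals above every WT animal, whereas in Zbtb16 and Cdkn1a the groups overlap over most of their range.

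Fkbp5, a co-chaperone that lowers the hormone affinity of the glucocorticoid receptor and so closes a feedback loop, lies at chr17:28399094-28517527 on the minus strand. It had a lowest, median and highest level of 61.3, 65.5 and 68.9 CPM in cKO, against 52.4, 62.6 and 65.9 CPM in WT. The groups overlap, and WT 1 and WT 5 lie below every cKO animal. The log2 fold change was 0.12 ± 0.06 (SE; adjusted p = 0.535, edgeR), and 0.09 ± 0.06 without the library labelled cKO 1, which held the highest Fkbp5 level of all. Fkbp5 was the steadiest of the set among cKO animals, with a coefficient of variation of 4.44% in cKO and 9.07% in WT.

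Among the transcriptional regulators, Tsc22d3, known as GILZ, codes for a leucine zipper protein that restrains inflammatory transcription. It had 44.7, 52.1 and 55.9 CPM (lowest, median, highest) in cKO and 38.6, 44.8 and 56.6 CPM in WT. No cKO animal exceeded WT 4, the highest of all, and 3 WT animals lay below every cKO animal. The log2 fold change was 0.16 ± 0.08 (adjusted p = 0.593, edgeR), and 0.18 ± 0.09 without the library labelled cKO 1. Zbtb16, a zinc finger repressor also called PLZF, was the most abundant of the set per kb of exon, at 15.5 CPM per kb in cKO and 14.9 CPM per kb in WT. It had 71.5, 84.9 and 89.0 CPM in cKO, against 70.3, 78.9 and 87.4 CPM in WT. The groups overlap almost wholly, and the log2 fold change was 0.05 ± 0.07 (adjusted p = 0.869, edgeR), or 0.07 ± 0.06 without the library labelled cKO 1. It was 0.00991 without WT 1 and 0.0168 without cKO 5.

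Of the kinases, Sgk1, which regulates ion channels and transporters and is also a target of the mineralocorticoid receptor, lies at chr10:21882184-21999903 on the plus strand. It had 49.8, 56.9 and 92.8 CPM in cKO, against 47.0, 51.0 and 69.6 CPM in WT. The spread of cKO came mainly from cKO 2 at 92.8 CPM and cKO 3 at 73.1 CPM, the only libraries above WT 4. The log2 fold change was 0.23 ± 0.15 (adjusted p = 0.669, edgeR), 0.25 ± 0.16 without the library labelled cKO 1, and 0.08 without cKO 2. Sgk1 was the most variable of the set for its level: 97.9% of genes within 0.5 log2 CPM of it had a lower dispersion, the model's measure of spread between animals. Map3k6, a kinase of the stress-activated pathways that acts upstream of JNK and p38, was the least abundant, at 108 to 196 counts per library. It had 2.56, 3.66 and 4.15 CPM in cKO, against 2.57, 2.81 and 3.35 CPM in WT. The lowest of all 12 was the library labelled cKO 1, and the other 5 cKO animals lay above every WT animal. The log2 fold change was 0.34 ± 0.11 (adjusted p = 0.372, edgeR). With the library labelled cKO 1 left out it was 0.41 ± 0.09, with an adjusted p of 0.0940 (edgeR), the smallest of any member under any setting. In that comparison Map3k6 alone of the 9 genes did not overlap between genotypes, where 0.559% of all genes had those 5 libraries above every WT library.

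Errfi1, also called MIG6, is a feedback inhibitor of the EGF receptor and lies at chr4:150853919-150868892 on the plus strand. It had 33.6, 37.1 and 39.4 CPM in cKO, against 29.8, 33.8 and 34.6 CPM in WT. All cKO animals but cKO 5 lay above every WT animal, although the difference was small, with a log2 fold change of 0.15 ± 0.05 (adjusted p = 0.357, edgeR). It was 0.13 ± 0.05 without the library labelled cKO 1. Its narrow spread, with a coefficient of variation of 6.21% in cKO and 5.39% in WT, goes with the smallest p of the set.

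Plin4, a perilipin that coats lipid droplets, had the largest mean difference of the set, 1.47-fold. It had 7.60, 14.7 and 16.3 CPM in cKO, against 6.85, 9.41 and 11.4 CPM in WT, with a mean of 13.4 ± 3.35 CPM in cKO and 9.17 ± 1.87 CPM in WT (SD, n = 6 each). The groups overlap: cKO 4 at 7.60 CPM lay among the lowest WT animals, and 4 cKO animals lay above every WT animal. The log2 fold change was 0.55 ± 0.18 (95% interval 0.16 to 0.94, adjusted p = 0.368, edgeR), and 0.51 ± 0.19 without the library labelled cKO 1. Without the 3 libraries low in choroid plexus signal, which include cKO 4, it was 0.64 ± 0.14. The span of Plin4 overlaps that of Hdgfl2 on the opposite strand. With no strand setting stated for the counts, reads from any shared exon bases may have been given to either gene. The overlap of their exons was not measured.

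Sult1a1, a sulfotransferase of phenolic compounds, had 10.2, 10.5 and 12.8 CPM in cKO, against 8.31, 8.59 and 12.6 CPM in WT. Of the WT animals, 5 lay below every cKO animal, and WT 6 lay above all cKO animals but the library labelled cKO 1. The log2 fold change was 0.25 ± 0.10 (adjusted p = 0.473, edgeR), and 0.19 ± 0.10 without the library labelled cKO 1. Sult1a1 overlaps Sgf29 on the opposite strand, so the same limit applies. Cdkn1a, the cell cycle inhibitor p21, which p53 also induces, had 4.92, 6.50 and 9.40 CPM in cKO, against 5.29, 6.65 and 7.83 CPM in WT. The medians lie in the opposite order to the means, and the log2 fold change was 0.06 ± 0.14 (adjusted p = 0.931, edgeR), or 0.13 ± 0.13 without the library labelled cKO 1 and -0.0585 without cKO 5. Cdkn1a and Fkbp5 lie on the same chromosome, 573448 bases apart.

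**Figure D2:**
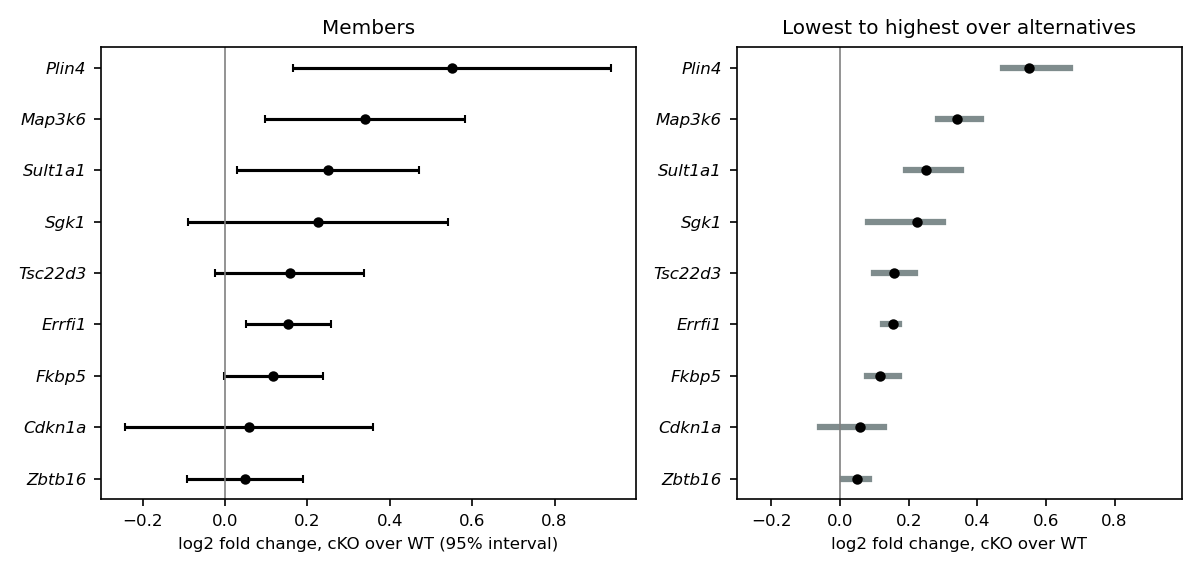
Log2 fold change, cKO over WT, of each of the 9 genes with its 95% interval (left), and the lowest to highest value over the alternative settings as a grey bar with the reported value as a point (right). All 9 values lie above 0, 4 intervals lie wholly above 0, and only the bar of Cdkn1a crosses 0.

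The receptor side of the pathway did not differ past the threshold either. Of 14 listed receptors, chaperones, cofactors and hormone enzymes, 13 were tested (all but Hsd11b2), 4 had a mean difference above 0 and 9 below it, and none passed adjustment (median log2 fold change -0.04). Before adjustment 4 lay under a p of 0.05 and all were lower in cKO, as were 6.34% of all genes: Nr3c1 and the coregulators Ncoa1, Ncoa2 and Nrip1, the last 3 named after their values were seen. With the library labelled cKO 1 left out, 5 lay above 0 and 8 below, with a median of -0.04, none passed (smallest adjusted p = 0.102, edgeR), and 4 were lower at an unadjusted p under 0.05, as were 8.96% of all genes. Nr3c1 had 70.3, 74.1 and 86.2 CPM in cKO, against 78.6, 84.5 and 95.7 CPM in WT. The groups overlap, and the highest cKO value was that of the library labelled cKO 1. Nr3c1 differed by -0.15 ± 0.06 on the log2 scale (adjusted p = 0.409, edgeR), and by -0.20 ± 0.05 without that library (adjusted p = 0.111, edgeR). Nr3c2, the high-affinity receptor, averaged 167 ± 14.7 CPM in cKO and 174 ± 12.1 CPM in WT (SD, n = 6 each; log2 fold change -0.06 ± 0.06, adjusted p = 0.799, edgeR). Hsd11b1, the enzyme that regenerates active corticosterone inside cells, averaged 18.7 ± 2.86 CPM in cKO and 20.6 ± 2.80 CPM in WT (log2 fold change -0.14 ± 0.11, adjusted p = 0.732, edgeR). Fkbp4, the co-chaperone that competes with Fkbp5, averaged 101 ± 6.92 CPM in cKO and 96.4 ± 4.62 CPM in WT (log2 fold change 0.06 ± 0.05, adjusted p = 0.731, edgeR). Nr3c2, Hsd11b1 and Fkbp4 had log2 fold changes of -0.10 ± 0.06, -0.22 ± 0.10 and 0.07 ± 0.05 when the library labelled cKO 1 was left out.

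Of 22 other genes that glucocorticoids induce, all were tested, 17 had a mean difference above 0 and 5 below it, where 53.4% of all genes lay above 0, and none passed adjustment (median log2 fold change 0.09). Before adjustment 4 lay under a p of 0.05, all higher in cKO, as were 3.2% of all genes: Gjb6, Klf15, Mt1 and Mt2. Leaving out the library labelled cKO 1, the list still had 17 above 0, with a median of 0.08, and of the 4 only Gjb6 lay under that p (edgeR). Gjb6, the astrocyte gap junction protein connexin 30, had 41.1, 43.8 and 44.5 CPM in cKO, against 36.1, 39.4 and 42.9 CPM in WT. Its log2 fold change of 0.13 ± 0.05 had the smallest adjusted p of the list, 0.407 (edgeR). The metallothioneins Mt1 and Mt2, which bind zinc and copper, had log2 fold changes of 0.13 ± 0.06 and 0.18 ± 0.08 (adjusted p = 0.520 for each, edgeR). Klf15, a transcription factor of metabolic genes, Ddit4, an inhibitor of mTORC1, and Pnpla2, the lipase that attacks lipid droplets, had log2 fold changes of 0.11 ± 0.05, 0.14 ± 0.07 and 0.14 ± 0.07 (adjusted p = 0.516, 0.538 and 0.560, edgeR). These 6 genes had log2 fold changes of 0.10 to 0.16 when the library labelled cKO 1 was left out.

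**Figure D3:**
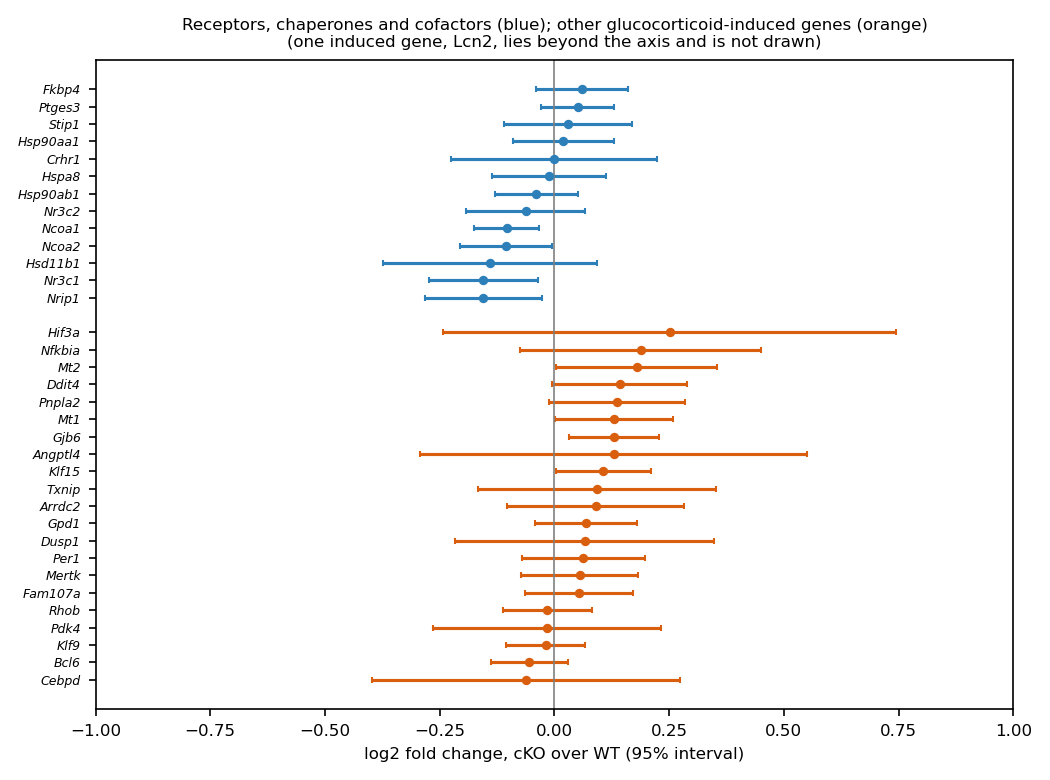
Log2 fold change, cKO over WT, with 95% intervals for the 13 tested receptors, chaperones and cofactors (blue) and for 21 of the 22 other glucocorticoid-induced genes (orange), each block in falling order. Lcn2, at 1.72 ± 0.97, lies off the axis; the blue block lies mostly below 0 and the orange block mostly above it, and none passed adjustment.

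Markers of vessel cells, meninges and choroid plexus were read beside the members, and none of them passed adjustment. All 8 markers of contractile smooth muscle had a mean difference above 0, where 53.4% of all genes did, with a median log2 fold change of 0.84 and 8 of 8 higher at an unadjusted p under 0.05, where 3.2% of all genes were (edgeR). Their summed levels did not overlap, at 116 to 172 CPM in cKO and 71.5 to 111 CPM in WT. The 116 CPM was that of the library labelled cKO 1, and the other cKO libraries began at 127 CPM. Of the 8 markers, 6 had every cKO library above every WT library, where 0.181% of all genes had. Meningeal fibroblast markers had 9 of 9 above 0, with a median of 0.35 and 2 higher at an unadjusted p under 0.05, and choroid plexus markers had 11 of 11 above 0, with a median of 0.32 and 0 at an unadjusted p under 0.05. Pericyte markers had 6 of 7 above 0, with a median of 0.12 and 2 higher at an unadjusted p under 0.05 (edgeR). Endothelial markers had 11 of 12 above 0, with a median of 0.09 and 1 higher at that p. The summed levels of these 4 lists overlap between genotypes, with pericyte markers at 205 to 239 CPM in cKO and 191 to 212 CPM in WT, and endothelial markers at 336 to 395 CPM in cKO and 321 to 357 CPM in WT. Meningeal markers summed to 348 to 545 CPM in cKO and 195 to 521 CPM in WT, and choroid plexus markers to 59.8 to 5644 CPM in cKO and 91.2 to 8419 CPM in WT. The libraries low in choroid plexus signal, WT 2, WT 3 and cKO 4, are unevenly split between the genotypes. WT 2 and WT 3 also had the lowest meningeal sums, at 204 and 195 CPM, against 334 CPM or more in the others. The medians of both lists were not computed without WT 2, WT 3 and cKO 4. Contractile, meningeal, choroid plexus, pericyte and endothelial markers had medians of 0.90, 0.30, 0.26, 0.10 and 0.06 when the library labelled cKO 1 was left out. In that comparison 8, 1, 0, 0 and 1 of them were higher at an unadjusted p under 0.05 (edgeR), as were 3.27% of all genes. Of the 12 endothelial markers, 9 then lay above 0. No marker of these lists was at 0. The part of these cells in the members' differences was not tested. Within genotypes, over the 12 animals, the contractile score had r = -0.03 with Map3k6, which was -0.71 without the library labelled cKO 1 and 0.21 without WT 3. With Plin4 it had r = -0.31, from -0.48 to -0.07 with 1 animal left out, and with Errfi1 r = 0.14, from 0.02 to 0.29. Plin4 had r = 0.76 with choroid plexus markers over the 9 libraries with signal (exact permutation p = 0.0462, adjusted p = 0.665). That r was 0.33 in cKO and 0.95 in WT. Over 12 animals Plin4 also had r = -0.76 with GABAergic interneuron, -0.65 with pan-neuronal and 0.66 with oligodendrocyte markers. Their exact permutation p was 0.0103, 0.0260 and 0.0294, with adjusted p of 0.314, 0.589 and 0.589. Without cKO 4 these r were -0.55, -0.53 and 0.44. Map3k6 had r = -0.57 with meningeal markers over 12 animals (exact permutation p = 0.0440, adjusted p = 0.665).

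Covariation was asked within genotypes, on log2 CPM with each genotype's mean removed as labelled. The library labelled cKO 1 was centred with cKO, so values without it are given as well. Across the 36 pairs of the 9 genes, 22 correlations were positive and 14 negative over the 12 animals, from -0.45 to 0.72 with a median of 0.08. None of the 36 passed adjustment in an exact permutation of animals within genotypes (smallest adjusted p = 0.203), and 3 lay under an unadjusted p of 0.05. Fkbp5 and Tsc22d3, both widely used as readouts of receptor activity, had r = -0.15 and rho = -0.46 (exact permutation p = 0.688 for r, adjusted p = 0.897).

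The 3 closest pairs did not share a gene. Zbtb16 and Cdkn1a had r = 0.72 and rho = 0.78 (exact permutation p = 0.0136 for r and 0.00741 for rho, adjusted p = 0.203 and 0.133), with r = 0.79 in cKO and 0.61 in WT. Sgk1 and Errfi1 had r = 0.70 and rho = 0.87 (exact permutation p = 0.0168 and 0.00133, adjusted p = 0.203 and 0.0478), with r = 0.76 in cKO and 0.63 in WT. The rank correlation of Sgk1 and Errfi1 was the single one of 36 that passed adjustment. Tsc22d3 and Map3k6 had r = 0.61 and rho = 0.68 (exact permutation p = 0.0170 and 0.0218, adjusted p = 0.203 and 0.261), with r = 0.81 in cKO and 0.64 in WT. Without the 2 animals farthest from the median of the first gene, r was 0.76, 0.67 and 0.79 for these pairs in the same order. Without the library labelled cKO 1, r was 0.64, 0.77 and 0.53 in that order.

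**Figure D4:**
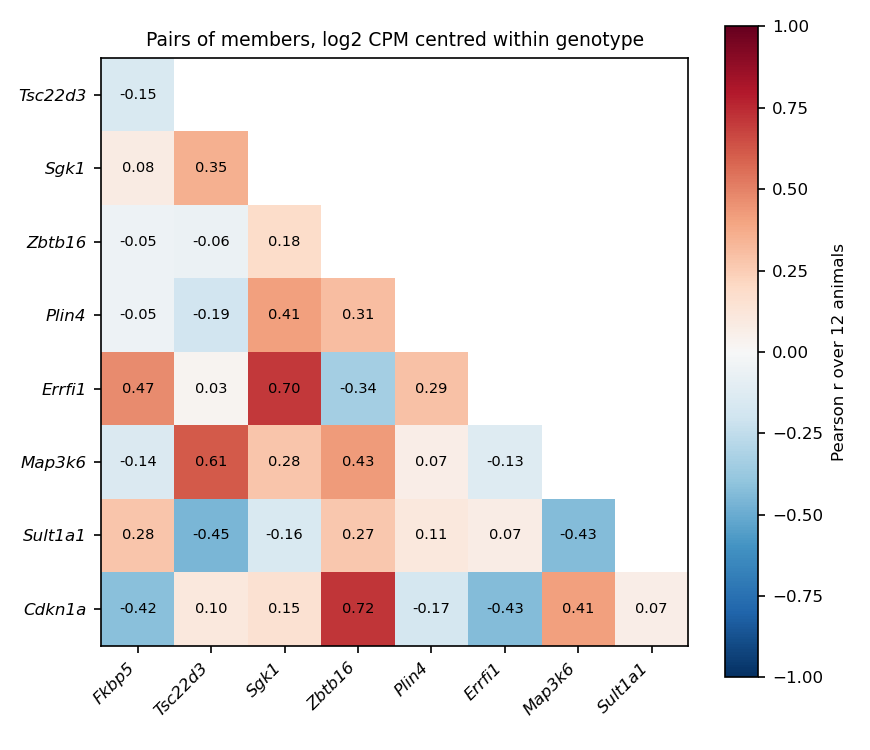
Pearson correlation over 12 animals for each of the 36 pairs of the 9 genes, on log2 CPM centred within genotype, from blue (negative) to red (positive). The darkest red cells are Zbtb16 with Cdkn1a at 0.72, Sgk1 with Errfi1 at 0.70 and Tsc22d3 with Map3k6 at 0.61.

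Each gene was then set against 17 lists of pathway and cell type markers, 153 relations in all, with scores averaged over the genes of a list; for choroid plexus the 9 libraries with signal were used. Of these, 2 passed adjustment in the exact permutation test and 11 lay under an unadjusted p of 0.05. Sgk1 followed the score of the 22 other glucocorticoid-induced genes, with r = 0.91 and rho = 0.95 (exact permutation p = 3.86e-05 and 1.93e-05, adjusted p = 0.00339 and 0.00177). It did so in both genotypes, with r = 0.95 in cKO and 0.88 in WT, and r was 0.87 without cKO 2 and WT 5, the animals farthest from the median score, and 0.94 without the library labelled cKO 1. Animals cKO 2, cKO 3 and WT 4 were high in both Sgk1 and the score, and cKO 4, cKO 5 and WT 5 low in both. Errfi1 had r = 0.82 and rho = 0.87 with the same score, which did not pass (exact permutation p = 0.00279 and 0.00183, adjusted p = 0.107 and 0.0935), and r = 0.66 without those 2 animals.

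The genes behind that score were set against Sgk1 and Errfi1 one by one, after these 2 members had been seen to follow it best, so the values are a description with no test. Sgk1 was positive with 19 of 22, with a median r of 0.40, and Errfi1 with 17 of 22, with a median r of 0.43. By r, Sgk1 was closest to Nfkbia, the inhibitor of NF-kB (r = 0.87, rho = 0.81), and Errfi1 to Mt2 (r = 0.85, rho = 0.80). By rank, Errfi1 was closest to Nfkbia, with rho = 0.82.

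Zbtb16 ran against pericyte markers, with r = -0.82 and rho = -0.95 (exact permutation p = 4.44e-05 and 2.31e-05, adjusted p = 0.00339 and 0.00177). It did so in both genotypes, with r = -0.82 in cKO and -0.86 in WT, and r was -0.66 without cKO 4 and WT 1, the animals farthest from the median score. Those 2 animals had the highest score relative to their genotype and were the lowest of their genotype in Zbtb16. Without cKO 4 alone r was -0.76 and did not pass (exact permutation, adjusted p = 0.483), whereas leaving out the library labelled cKO 1 gave -0.89. Zbtb16 was also negative with endothelial (r = -0.61), microglia (r = -0.59) and astrocyte markers (r = -0.45), and slightly positive with oligodendrocyte markers (r = 0.12). None of these passed adjustment. Plin4 had r = 0.80 and rho = 0.73 with 12 p53 target genes, which did not pass (exact permutation p = 0.00236 and 0.00934, adjusted p = 0.107 and 0.357). That value was 0.49 without WT 1 and cKO 4.

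**Figure D5:**
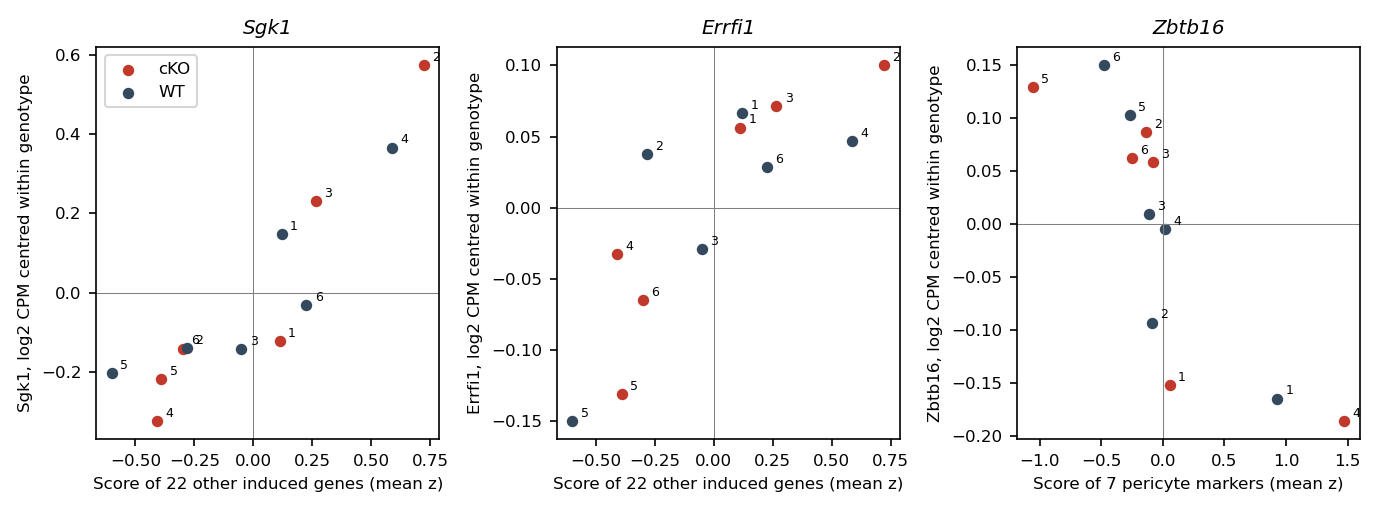
Log2 CPM centred within genotype of Sgk1 (left), Errfi1 (middle) and Zbtb16 (right) in each of 12 animals, against the score of 22 other glucocorticoid-induced genes (left, middle) or of 7 pericyte markers (right), in mean z units, with animal numbers beside the points. The cKO (red) and WT (dark) animals lie along the same trend in each panel, with r of 0.91, 0.82 and -0.82.

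Outside the set, the genes most like the mean z score of the 9 genes were found among 12154 genes with a mean of at least 5 CPM, over the 12 animals. They were Gm47031 at r = 0.87, Hsp90ab1 at r = 0.86, Zfp553 and Mtap at r = 0.83, and Fbxl14 and Slc18b1 at r = 0.81, given as a description with no test. Hsp90ab1 codes for a form of the chaperone that holds the receptor, and averaged 1390 ± 62.5 CPM in cKO and 1429 ± 61.1 CPM in WT (SD, n = 6 each; adjusted p = 0.821, edgeR).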

How the data were processed

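The authors deposited expected counts, estimated read numbers per gene symbol that are not scaled between libraries, with 1 column per animal. Per the submitters' processing notes they were made with Salmon 1.3.0 on GRCm38. The sources used here name no annotation, strand setting or way of summing to genes. Of the 33250 gene values of each library, 24.8% to 25.9% were not whole numbers, and all values were rounded to whole numbers before use. All 12 columns were used.

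The main model was edgeR 4.0.16 (quasi-likelihood, R 4.3.3) on genotype alone, with TMM scaling and the filterByExpr filter (count minimum 10, total 15). Adjustment was Benjamini-Hochberg over 19325 genes, at 0.05. Errors on log2 fold changes are standard errors with n = 6 per genotype. DESeq2 1.42.0 and limma 3.58.1 were alternatives. Correlations used log2 CPM (prior count 2) centred within genotype, with two-sided exact permutation within genotypes over 518400 arrangements, adjusted over each family. The steps were tested on simulated data.

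The labels number the animals within each genotype, so p-values measure the spread between them. Libraries of 1 genotype differed beyond sampling noise in each pair (chi-square per degree of freedom at least 7.93). Totals ran from 42360558 to 51095758 counts. All 9 members were named, with Nr3c1, Nr3c2, Hsd11b1, Fkbp4, the 6 other induced genes of smallest p and the 6 genes most like the members. Members and lists were chosen with earlier results of these data known.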

Additional observations from a re-analysis of the deposited data

Results flagged for a closer look

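Sult1a1 in WT 6 stood far from the other WT animals, at 12.6 CPM against 8.31 to 8.79 CPM in the other 5. Of 38 groups of 6 animals examined in this way, this 1 stood apart, where chance gives about 1.9. Without WT 6 the log2 fold change of Sult1a1, cKO over WT, was 0.35 (adjusted p = 0.291, edgeR), and it still did not pass.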

How the results depend on the processing

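None of the 9 members was called under any of 21 alternatives, with the smallest adjusted p at 0.0940 (edgeR), while the number with an unadjusted p under 0.05 ran from 3 to 5. Of 189 member values, 187 kept their direction. Cdkn1a reversed to -0.0585 without cKO 5 and to -0.00365 without WT 3, and reached 0.128 without the library labelled cKO 1, Sgk1 ran from 0.08 without cKO 2 to 0.30, and Zbtb16 from 0.00991 without WT 1 to 0.0835 without cKO 4. Genes called were 2 with edgeR, 85 of 19043 with DESeq2 (0.446%, no member), 0 with limma-voom (1847 at an unadjusted p under 0.05), 1 with no low-count filter, and 1 with at least 1 CPM in at least 6 libraries. Leaving out 1 animal gave 0 to 6, with 6 without the library labelled cKO 1 and an unadjusted count of 1257 to 2799. Without WT 2, WT 3 and cKO 4 it gave 0 (1457 unadjusted). With the animal number as a replicate block, 0 genes were called (1724 unadjusted). Same-numbered animals correlated at -0.266 to 0.25, and 1 of 6 correlated best with its own number. No pairing by number was seen, although 6 such values cannot exclude one. The cause of these shifts was not tested.

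The correlation of Fkbp5 and Tsc22d3 reversed to 0.14 with no centring, 0.0793 without WT 2 and 0.0899 without WT 2, WT 3 and cKO 4, and was -0.457 without WT 5. Of the 153 marker relations, 2 passed, or 1 to 2 with 1 animal left out. Leaving out WT 2, WT 3 and cKO 4, chosen after seeing the data, left 0, with r = 0.88 for Sgk1 and the other induced genes and -0.87 for Zbtb16 and pericyte markers (exact permutation, adjusted p = 0.239 for both). The smallest p that 9 animals allow is 0.000347, or 0.0531 after multiplying by 153. The adjusted p of 0.239 lies above 0.0531, so these relations were not at that limit. Depth limits Map3k6 most, at 108 to 196 counts per library.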

Other observations

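Lists outside the glucocorticoid pathway were described by the same counts. Of 10 immediate early genes, 2 had a mean difference above 0 and 8 below it, where 53.4% of all genes lay above 0. The median log2 fold change was -0.11, or -0.10 without the library labelled cKO 1, and none was called. Before adjustment 2 were lower in cKO at a p under 0.05 (edgeR), as were 6.34% of all genes. The most abundant immediate early genes were Arc, a synaptic capsid-like protein, at 151 ± 30.5 CPM in cKO and 143 ± 37.2 CPM in WT, and Egr1, a zinc finger factor, at 107 ± 15.7 CPM in cKO and 127 ± 22.1 CPM in WT (SD, n = 6 each). Of 12 p53 target genes 7 lay above 0 and 5 below, with a median of 0.03 and none called. Before adjustment 1 was higher in cKO at a p under 0.05 (edgeR), as were 3.2% of all genes. Of 10 circadian clock genes 4 lay above and 6 below, with a median of -0.01 and none called (0 unadjusted). These medians were 0.01 and -0.03 with the library labelled cKO 1 left out. Of 7 dentate granule neuron markers all lay below 0, with a median of -0.20 and none called. Before adjustment 1 was lower in cKO at a p under 0.05 (edgeR), as were 6.34% of all genes. Prox1, which marks that lineage, averaged 103 ± 18.2 CPM in cKO and 119 ± 12.96 CPM in WT. The dentate median was -0.28 with the library labelled cKO 1 left out, and none was called. In that comparison 5 were lower at an unadjusted p under 0.05 (edgeR), as were 8.96% of all genes. All 10 oligodendrocyte markers also lay below 0, with a median of -0.09, or -0.15 without that library, and none was called.

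Lcn2, a secreted lipocalin, had 0.193, 0.535 and 7.77 CPM (lowest, median, highest) in cKO and 0.102, 0.275 and 2.24 CPM in WT, from 5 to 350 counts. Its log2 fold change was 1.72 ± 0.97, or 1.95 ± 0.96 without the library labelled cKO 1. The highest was cKO 2, which also held the highest Sgk1 and Nfkbia.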
